A study of Danio rerio with 3 samples.

Results

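The respiratory chain genes of zebrafish fin endothelium were read, from both genomes, in single cells sorted from the anal fin. Members were the rows of the plate tables whose name starts with mt-nd, mt-co, mt-cyb, mt-atp, nduf, uqcr or atp5, or with cox followed by a digit from 4 to 8, whatever the case of the letters. They numbered 100 of 25839 rows, 10 encoded in mitochondrial DNA and 90 in the nucleus. The letter case decided 8 of them, such as COX5B and UQCR10, which the tables write in capitals. The cells carried dsRed under fli1a regulatory sequence, a reporter of endothelium that in zebrafish is also active in neural crest-derived cells of the jaw arches, and came from digested anal fins of immature zebrafish at stage II-III. All 3 samples are plates of this one kind, each of 384 wells, and the labels give 80 dissected fins for each without saying whether the plates came from separate fish. Plates were therefore the replicates and entered the fits as a block. The p-values refer to the spread left among sums of wells after plate and class differences, which may be technical. Comparisons were made between classes of wells within plates.

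Oxidative phosphorylation runs on 4 large membrane complexes of mixed origin, besides succinate dehydrogenase, which is nuclear throughout. Complex I takes electrons from NADH, complex III passes them from ubiquinol to cytochrome c, complex IV hands them to oxygen, and complex V, the ATP synthase, uses the proton gradient that the others build. A small core of each is written in mitochondrial DNA, and the remaining subunits, with the assembly factors, are nuclear genes whose proteins are imported. Endothelial cells are known to draw much of their ATP from glycolysis, so these genes are often read there for biosynthesis and redox balance as well as for energy.

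UMIs (unique molecular identifiers) count captured molecules, tagged at the 3′ end of poly(A) RNA by the MARS-seq protocol. One molecule gives one tag whatever its length, so levels are not divided by length. They are given as UMIs per 1000000 UMIs of the summed wells (CPM), a share of the captured RNA and not an amount per cell. Over the 1036 wells that the authors list as analysed, the plates held 559559, 481392 and 144408 UMIs, with medians of 1064.5, 914.5 and 382 per well. Pan-endothelial markers were found in every class of wells described here, at 2311 to 6593 CPM summed over the 10 of 11 with a row, with etv2, an early gene of vessel formation, at 0 in the classes compared. The plates share all 384 cell barcodes. In wells with the same barcode and at least 300 UMIs, the share of mitochondrial members had a Pearson's r of 0.15, 0.02 and -0.14 between plates 1 and 2, 1 and 3, and 2 and 3 (293, 142 and 127 wells).

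The mitochondrial genome supplied most of the signal. Its members took 4.84% ± 0.327 of all UMIs (SD, n = 3 plates) and the nuclear members 0.891% ± 0.0590. Of 67753 member UMIs, 84.0% came from the 10 mitochondrial rows. Another 12.9% ± 3.07 of UMIs lay in 19 rows named after one clone. Those rows are not members. They were treated as mitochondrial wherever mitochondrial rows are left out of a denominator or library size below.

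Among mitochondrial members the row mt-atp8 was the highest, at 14817, 11500 and 14355 CPM in plates 1, 2 and 3, followed by the catalytic core subunits of complex IV, mt-co1 at 11924, 11361 and 11654 CPM and mt-co2 at 10639, 9828 and 9141 CPM. The plates agreed most closely on mt-co1 among these, with a mean of 11646 ± 282 (SD, n = 3), and mt-atp8 was lowest in plate 2. The cytochrome b gene mt-cyb, the single mitochondrial member of complex III, stood at 3952 ± 306 CPM. The complex I members, which encode subunits of its proton-pumping arm, ran in the order mt-nd4l (2741 ± 495), mt-nd2 (2692 ± 373), mt-nd1 (1947 ± 308), mt-nd3 (1185 ± 38.3) and mt-nd5 (818 ± 151). Neighbours in that order were within their spread for mt-nd4l and mt-nd2, and mt-nd3 lay below mt-nd1 in every plate. The gene mt-nd6 was far below the rest, at 34.0, 29.1 and 62.3 CPM and 42 UMIs in all.

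Overlap on the mitochondrial chromosome limits what a row name means. The RefSeq table of assembly GRCz12tu, another assembly than the counts used, lists 13 protein genes there, of which 10 had a row. The other 3, for ATP synthase subunit 6, cytochrome oxidase subunit 3 and NADH dehydrogenase subunit 4, are not analysed here. Each of them overlaps a neighbour in that table: ATP6 overlaps ATP8 and COX3, and ND4 overlaps ND4L. ATP8 and ATP6, and likewise ND4L and ND4, are known in vertebrates to share a transcript, and the rule that assigned tags to overlapping genes is not given in the sources used here. The rows mt-atp8 and mt-nd4l may therefore hold tags of those neighbours. Their levels are those of the rows, not of single genes. The table also has ND6 overlapping ND5, so the few mt-nd6 tags are uncertain too.

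Nuclear members were each rarer than all mitochondrial rows but mt-nd6, from 0 to 614 UMIs with a median of 85.5 over the 3 plates. The most abundant by UMIs over all plates were atp5a1, for the α subunit of the ATP synthase head, at 575, 474 and 443 CPM, and cox4i1, a regulatory complex IV subunit gene, at 483, 511 and 526 CPM. Next were atp5b, for the catalytic β subunit, at 461, 428 and 312 CPM and ndufa4l at 388, 393 and 388 CPM. RefSeq lists ndufa4l as ndufa4a. Its mammalian counterpart was first assigned to complex I and is now placed with complex IV, and it is counted with complex I here by its name. The order among atp5a1, cox4i1 and atp5b differed between plates, whereas ndufa4l was at almost the same level in all 3. In complex III the nuclear gene with most UMIs over all plates was uqcrh, the hinge protein gene, at 152, 143 and 96.9 CPM, close to uqcrq (140.1 ± 20.7), uqcrfs1 (138 ± 13.0) and uqcrb (132 ± 20.6), and it led in none of the plates. Summed over all wells, nuclear genes of complex V gave 3707 UMIs from 17 rows, complex I 3133 from 45, complex IV 3033 from 20 and complex III 938 from 8.

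**Figure D1:**
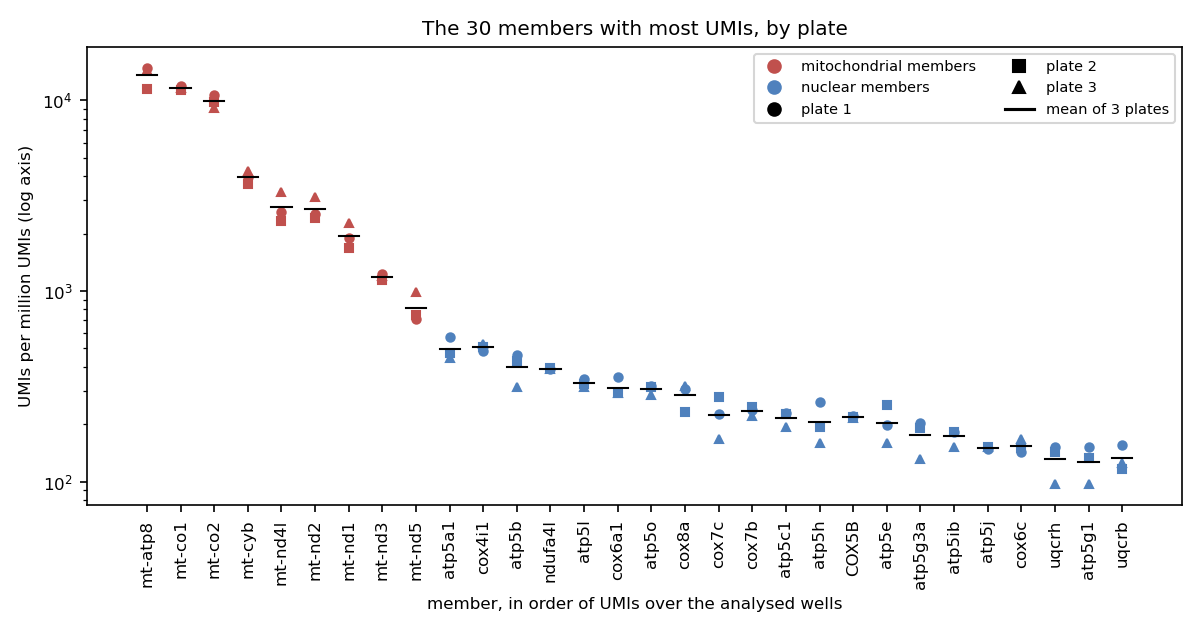
Levels of the 30 members with most UMIs over the analysed wells, in CPM on a log axis, with one symbol per plate, red for mitochondrial and blue for nuclear members, and a bar at the mean of 3 plates. The 9 leading mitochondrial rows all lie above the nuclear members, of which cox4i1 had the highest mean, 507 CPM, and atp5a1 the next, 497 CPM.

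Paralog rows held unequal counts. In the cytochrome oxidase families COX5B had 259 UMIs and cox5b2 2, cox6a1 had 379 and cox6a2 2, cox8a had 329 and cox8b 38, and cox4i1 had 592, cox4i2 52 and cox4i1l 0. In mammals COX6A2, COX7A1 and COX8B are the heart and skeletal muscle forms, and the zebrafish rows of those names had 2, 0 and 38 UMIs. Other unequal pairs were ndufa4l with 462 against ndufa4 with 3, uqcrc2b with 82 against uqcrc2a with 11, and ndufab1b with 102 against ndufab1a with 59. Reads of near-identical copies could be divided between such rows in counting, so these splits are uncertain. The 6 ndufaf rows, for assembly factors of complex I, were all rare, ndufaf1 leading with 23 UMIs. The 10 members without a UMI were cox4i1l, cox6b2, cox7a1, ndufa3, ndufa4l2a, ndufa9b, ndufaf6, ndufb9, ndufs8b and ATP5J2. No UMI in 1185359 allows a level of up to 2.53 CPM, from counting error alone.

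The first comparison sets wells rich in RNA of a blood vessel gene against wells with RNA of a lymphatic one. The first class had at least 5 UMIs of aqp8a.1, a water channel gene of blood vessels, and the second at least 1 UMI of lyve1a, a hyaluronan receptor gene of lymphatic and some venous vessels. The 103 wells that met both rules were left out, which left 174 aqp8a.1-high and 232 lyve1a-positive wells, and 527 wells met neither rule. The plates' median depths averaged 1140.5 UMIs per aqp8a.1-high well, 1086 per lyve1a-positive well and 446 per well of neither kind. Just outside the limit 40 wells had 4 aqp8a.1 UMIs, and just inside it 27 had 5.

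Mitochondrial members had overlapping levels in both classes, and nuclear members together were somewhat lower in aqp8a.1-high wells. Summed over complexes, mitochondrial members stood at 49712, 41829 and 52093 CPM in aqp8a.1-high wells of plates 1, 2 and 3, against 50229, 43964 and 42815 in lyve1a-positive wells. The classes overlapped, and the direction differed between plates. Nuclear members stood at 8472, 8054 and 7505 CPM in aqp8a.1-high wells, against 10314, 10159.7 and 8137 in lyve1a-positive wells. Here aqp8a.1-high wells were lower within every plate, although the classes overlapped across plates. Wells of neither kind had 52712, 50259.7 and 54385 CPM of mitochondrial and 8911, 8322 and 8762 CPM of nuclear members. No test is given for these sums, because the members were chosen with earlier results known.

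Single genes carried little of this difference past the test. Of 55 members with enough UMIs for edgeR's quasi-likelihood test, 1 was lower in aqp8a.1-high wells, where 4.03% of all 1887 genes tested were, and 0 were higher, where 4.56% were (8.59% in either direction). At an unadjusted p under 0.05 the test gave 5 lower and 0 higher, beside 165 lower and 178 higher of all 1887 genes tested. The 5, a share close to that of all genes, were cox6b1, ndufa12 (log2 -1.47), cox7c (log2 -0.77), atp5a1 and atp5b. DESeq2 called 0 lower and 0 higher, beside 29 and 32 of all genes. The share of members called was thus no larger than in the background. The single gene was cox6b1, for a complex IV subunit on the side of the intermembrane space. It stood at 50.0, 38.7 and 0 CPM in aqp8a.1-high wells of plates 1, 2 and 3, against 135, 137 and 135 in lyve1a-positive wells (log2 -1.71, SE 0.55, adjusted p = 0.026, edgeR). Every aqp8a.1-high sum lay below every lyve1a-positive sum, on 10 and 47 UMIs. Without plate 1 or plate 2 cox6b1 was no longer called, at adjusted p-values of 0.17 and 0.62 by edgeR. It was 0.23 by DESeq2.

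The 9 mitochondrial members tested had log2 changes between -0.11 (mt-cyb) and 0.11 (mt-nd4l), and none passed (0 at an unadjusted p under 0.05 in edgeR, 0 by DESeq2). Their standard errors were 0.10 to 0.21. As an example, mt-co1 stood at 11790.2, 10916 and 13401 CPM in aqp8a.1-high and 12097, 11362 and 10737 in lyve1a-positive wells, with overlapping classes. Nuclear members tested had a median log2 change of -0.31, beside -0.03 for all genes tested. By complex that median was -0.53 for 12 genes of complex V, -0.21 for 15 of complex I, -0.15 for 12 of complex IV and -0.13 for 7 of complex III. A negative change was seen in 37 of 46 nuclear members tested, beside 990 of all 1887 genes tested. Among the members the largest positive change was that of ndufb7 (log2 0.87, SE 0.49, adjusted p = 0.34, edgeR).

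In complex V no nuclear member passed the test. Its catalytic β subunit gene atp5b stood at 392, 242 and 244 CPM in aqp8a.1-high wells, against 501, 457 and 338 in lyve1a-positive wells (log2 -0.56, SE 0.27, adjusted p = 0.24, edgeR). Its partner atp5a1 stood at 500.3, 338 and 487 CPM in aqp8a.1-high wells, against 700.2, 639 and 439 in lyve1a-positive wells (log2 -0.55, SE 0.24, adjusted p = 0.17, edgeR), and plate 3 ran the other way. The gene of the rotating γ subunit, atp5c1, stood at 167, 193 and 195 CPM in aqp8a.1-high wells, against 275, 282 and 270.1 in lyve1a-positive wells, and the classes did not overlap. The same held for atp5l, a membrane subunit gene, at 250.1, 261 and 195 CPM in aqp8a.1-high wells, against 425, 342 and 270.1 in lyve1a-positive wells. Beside 990 of all 1887 genes tested, 11 of 12 nuclear complex V members tested had a negative change. The remaining one, atp5ib, was higher within each plate, at 217, 213 and 97.5 CPM in aqp8a.1-high wells. In lyve1a-positive wells it stood at 178, 190 and 33.8 CPM (log2 0.30, SE 0.36, adjusted p = 0.76, edgeR). Among members tested, 6 of 55 had every aqp8a.1-high sum below every lyve1a-positive sum, all nuclear, beside 10.2% of all genes tested. In 15 of them, all nuclear, the aqp8a.1-high sum was lower within each plate, beside 20.8% of all genes tested. Markers moved with this contrast too. Pan-endothelial markers summed to 3994 to 4777 CPM in aqp8a.1-high and 2579.9 to 3613 in lyve1a-positive wells, and their part in the result was not tested. For muscle markers the sum over 12 of 14 listed genes with a row was 271 to 367 CPM in aqp8a.1-high and 810.4 to 1286 in lyve1a-positive wells. The fast myosin genes myhc4 and myhz2 were at 0 in both classes of plates 1 and 3. Neutrophil markers, all 5 with a row, reached 58.4, 9.67 and 97.5 CPM in aqp8a.1-high wells and 75.4, 0 and 1722 in lyve1a-positive wells. Erythrocyte markers, 9 of 10 with a row, had 650, 155 and 0 CPM in aqp8a.1-high wells and 21.5, 114 and 0 in lyve1a-positive wells. Without the 129 wells that held at least 3 UMIs of markers of other cell types, 0 members were called lower, of 44 tested. Those types were muscle, erythrocyte, macrophage, neutrophil, fibroblast and osteoblast, and keratinocyte markers were not counted.

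The second comparison follows the share of malat1, a long noncoding RNA held in the nucleus in mammalian cells, in the UMIs of a well. Analysed wells of at least 300 UMIs were put into 4 nearly equal bins within each plate, from the malat1-poor to the malat1-rich one. They held 201, 200, 200 and 199 wells from the lowest to the highest share. The malat1 level that defines them averaged 1005, 3925, 8861 and 20610 CPM in the same order. Of the 201 wells of the malat1-poor bin 91 had no malat1 UMI, and its 84 wells of plate 1 held 67 malat1 UMIs together. Membership of the lowest bin thus rests on few malat1 UMIs per well. Median depths averaged 1038, 1143, 1163 and 908 UMIs per well. Wells of both classes were found in each bin, with 31, 43, 45 and 52 aqp8a.1-high and 62, 60, 43 and 52 lyve1a-positive wells.

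Members of both genomes were lower where malat1 took a larger share of a well. In the malat1-rich bin, 25 of 58 members tested were lower than in the malat1-poor bin, beside 15.3% of all 1960 genes tested (30.6% in either direction). None was higher (0 at an unadjusted p under 0.05 in edgeR and 0 by DESeq2), beside 15.3% of all genes. The members called lower were 8 of 9 mitochondrial and 17 of 49 nuclear ones. Median log2 changes were -0.60 and -0.97 for mitochondrial and nuclear members tested, beside -0.06 for all genes. The count depended on the 2 deeper plates. Without plate 1, 5 called members stayed called, and without plate 2, 4 did, with 38 members tested in each fit. DESeq2 called 10 lower, 7 of 9 mitochondrial and 3 of 49 nuclear members, beside 162 of all 1960 genes. By DESeq2 the share of nuclear members called was thus no larger than that of all genes. The DESeq2 counts by complex below stand beside that same share. The genes mt-atp8, mt-nd1, mt-nd2 and mt-nd4l were called without plate 1 and without plate 2. In each of these fits no nuclear member kept its call. All 22 called members that were tested there had a negative change. They were chosen as lower on sums that these fits reuse, so the kept sign is no separate evidence.

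Summed mitochondrial members stood at 54134, 48508, 44750 and 41538 CPM (means of 3 plates) from the malat1-poor to the malat1-rich bin. Nuclear members stood at 10864, 9225, 8140.5 and 6655 CPM in the same order. For nuclear members the decline was stepwise within every plate. Mitochondrial members declined at each step in plate 2, were level between the lowest 2 bins of plate 1, and in plate 3 the next to highest bin lay above the bin below it. By plate the malat1-rich bin had 43590.4, 40329 and 40695 CPM of mitochondrial members, against 54947, 51618 and 55837 in the malat1-poor bin. For nuclear members the values were 7104, 6730.3 and 6132 CPM in the malat1-rich bin, against 11381, 10298 and 10913 in the malat1-poor bin. Neither genome's sums overlapped between these bins. Taken per 1000000 UMIs outside mitochondrial rows, nuclear members stood at 7928 ± 863 in the malat1-rich and 13269 ± 698 in the malat1-poor bin (SD, n = 3), and with mitochondrial rows left out of the library size 17 of 17 called nuclear members kept their call.

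**Figure D2:**
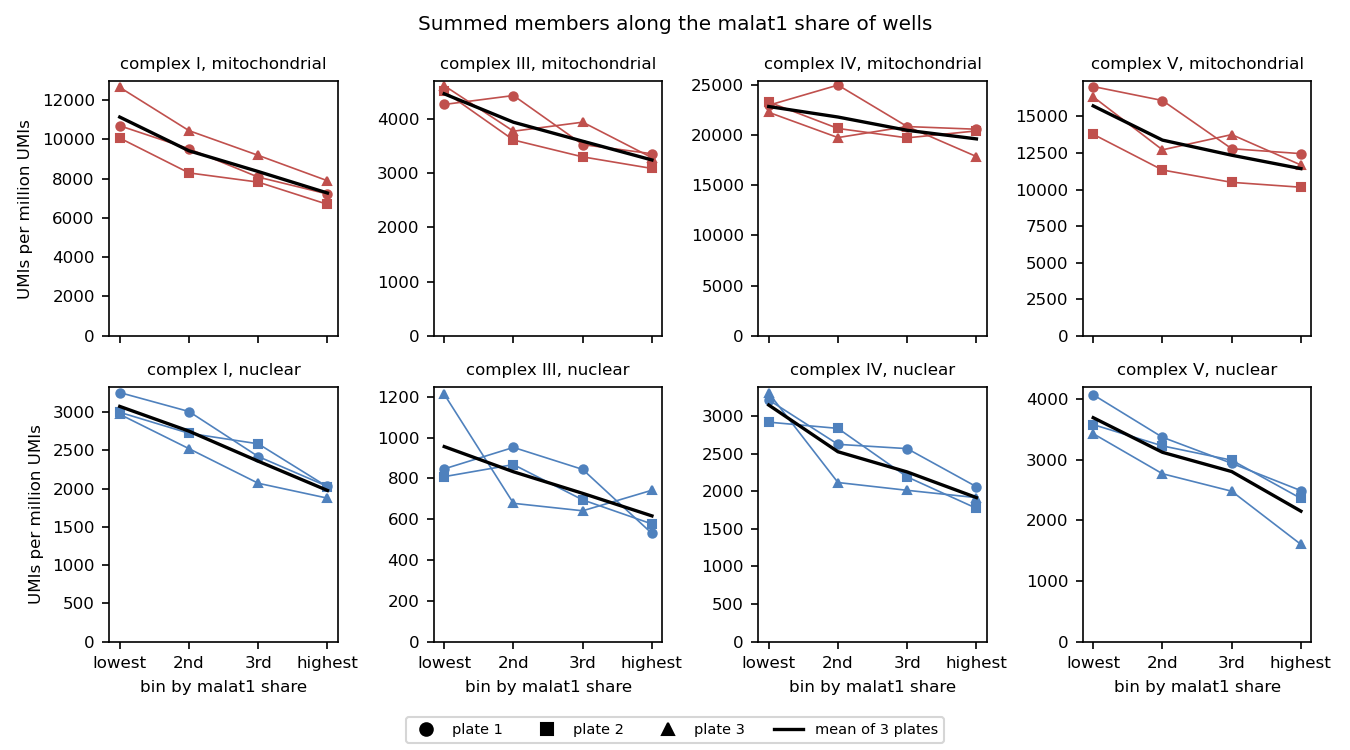
Summed CPM of the members of complexes I, III, IV and V over 4 bins of wells ordered by their malat1 share, with mitochondrial members above and nuclear members below. Coloured lines join the values of a plate and the black line joins the means of 3 plates. Complex I mitochondrial members averaged 11129 CPM in the lowest and 7264 in the highest bin, and all 8 mean lines fall from left to right.

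In complex I, 4 of 5 mitochondrial members tested fell, beside 15.3% of all genes called lower. The mt-nd1 row stood at 1529, 1352 and 1640.3 CPM in the malat1-rich bin of plates 1, 2 and 3, against 2394, 2117 and 2607 in the malat1-poor bin (log2 -0.79, SE 0.14, adjusted p = 2.8e-05, edgeR). For mt-nd2 the values were 2150.5, 1918 and 2187 CPM in the malat1-rich bin, against 3060.3, 2925 and 3668 in the malat1-poor bin (log2 -0.74, SE 0.13, adjusted p = 1.9e-05, edgeR). The row mt-nd4l had 1957, 1897 and 2031 CPM in the malat1-rich bin, against 2908, 2783 and 3941 in the malat1-poor bin (log2 -0.79, SE 0.13, adjusted p = 8.1e-06, edgeR). In these 3 rows no malat1-rich sum reached a malat1-poor one. The gene mt-nd3 fell as well (log2 -0.73), whereas mt-nd5 did not pass (log2 -0.51, adjusted p = 0.055, edgeR) and was higher in the malat1-rich bin of plate 3.

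Among 18 nuclear complex I members tested, 3 fell. They were ndufa4l at 306, 294 and 429.6 CPM in the malat1-rich bin, against 486, 492 and 455 in the malat1-poor bin (log2 -0.74), ndufs8a, for an iron-sulfur subunit (log2 -1.64), and ndufab1b, for the mitochondrial acyl carrier protein (log2 -1.44). The first of these is counted with complex I by its name only. The last 2 rest on few UMIs, 8 and 9 in the malat1-rich and 31 and 32 in the malat1-poor bin. That share, 16.7%, was close to the 15.3% of all genes called lower, and DESeq2 called 0 of the 18. All 18 had a negative change, beside 1024 of all 1960 genes tested. Of 45 nuclear rows of complex I, 27 were too sparse for the test.

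In complex III mt-cyb stood at 3353, 3082 and 3281 CPM in the malat1-rich bin, against 4261, 4503 and 4608 in the malat1-poor bin (log2 -0.60, SE 0.12, adjusted p = 1.2e-04, edgeR). Of 7 nuclear members tested, 2 fell: uqcrfs1, for the Rieske iron-sulfur protein, at 71.3, 83.9 and 117 CPM in the malat1-rich bin, against 159.6, 166 and 182 in the malat1-poor bin (log2 -1.13), and uqcrh at 61.2, 105 and 0 CPM in the malat1-rich bin, against 167, 159 and 243 in the malat1-poor bin (log2 -1.44). Both were lower in every malat1-rich sum than in any malat1-poor one. The share called, 28.6% of 7 nuclear members, stood beside 15.3% of all genes called lower. DESeq2 called 0 of the 7 nuclear members. The core protein gene uqcrc2b was the one member tested with a positive change (log2 0.47, SE 0.66, adjusted p = 0.62, edgeR), on 14 and 13 UMIs.

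In complex IV the mitochondrial members had the smallest changes of the called members. The row mt-co1 had 11405, 11091 and 9842 CPM in the malat1-rich and 12289.8, 12462 and 12913 in the malat1-poor bin (log2 -0.34, SE 0.10, adjusted p = 0.0072, edgeR). For mt-co2 the values were 9162, 9309 and 8006 CPM in the malat1-rich bin, against 10666, 10814 and 9336 in the malat1-poor bin (log2 -0.36, SE 0.10, adjusted p = 0.0043, edgeR). The bins did not overlap in either gene. Of 12 nuclear members tested, 5 fell (41.7%), beside 15.3% of all genes called lower. They were cox7c, cox6c, cox5ab, COX5B and cox4i1, which encode structural and regulatory subunits around the catalytic core. The gene cox7c stood at 91.7, 220.1 and 156 CPM in the malat1-rich bin, against 326, 365 and 273 in the malat1-poor bin (log2 -1.27, SE 0.34, adjusted p = 0.0034, edgeR). The other four had log2 changes of -1.43 for cox5ab, -1.25 for cox6c, -0.97 for COX5B and -0.69 for cox4i1. In cox6c the malat1-rich bin had 91.7, 83.9 and 78.1 CPM and the malat1-poor bin 153, 206 and 243, again without overlap. Plate 3 ran the other way in cox5ab, at 78.1 CPM in the malat1-rich and 30.3 CPM in the malat1-poor bin. The abundant genes cox6a1, cox8a and cox7b did not pass, at log2 changes of -0.70, -0.78 and -0.60. DESeq2 called mt-co2 but not mt-co1, and of the 12 nuclear members only cox7c.

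In complex V mt-atp8 stood at 12454, 10158 and 11677 CPM in the malat1-rich bin, against 17043, 13778 and 16339 in the malat1-poor bin (log2 -0.59, SE 0.09, adjusted p = 7.2e-06, edgeR). This complex had the most nuclear members called, 7 of 12 (58.3%), beside 15.3% of all genes. DESeq2 called 2 of the 12, atp5b and atp5l. Its nuclear rows also had the highest median UMIs, 212, against 75 in complex I, 133.5 in complex III and 107.5 in complex IV. The median log2 change of its nuclear members tested was -1.01, beside -0.96, -1.08 and -0.95 in those complexes. The 7 called members encode parts of the catalytic head (atp5b and, for its central stalk, atp5c1 and atp5e), of the peripheral stalk (atp5o and atp5h), and of the membrane sector (atp5l and, for the rotating c-ring, atp5g3a). The gene atp5b had 265, 367 and 234 CPM in the malat1-rich and 618, 547 and 364 in the malat1-poor bin (log2 -0.99, SE 0.27, adjusted p = 0.0038, edgeR), and was lower within each plate. For atp5c1 the values were 173, 115 and 117 CPM in the malat1-rich bin, against 333, 262 and 243 in the malat1-poor bin (log2 -1.19, SE 0.34, adjusted p = 0.0071, edgeR). For atp5l they were 234, 241 and 117 CPM in the malat1-rich bin, against 479, 357 and 424 in the malat1-poor bin (log2 -1.08, SE 0.29, adjusted p = 0.0044, edgeR). The bins did not overlap in atp5c1 or atp5l. Changes of the other four were -1.24 for atp5h, -1.04 for atp5g3a, -1.03 for atp5e and -0.77 for atp5o on the log2 scale. The nuclear member with most UMIs over all plates, atp5a1, did not pass (log2 -0.54, adjusted p = 0.087, edgeR).

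**Figure D3:**
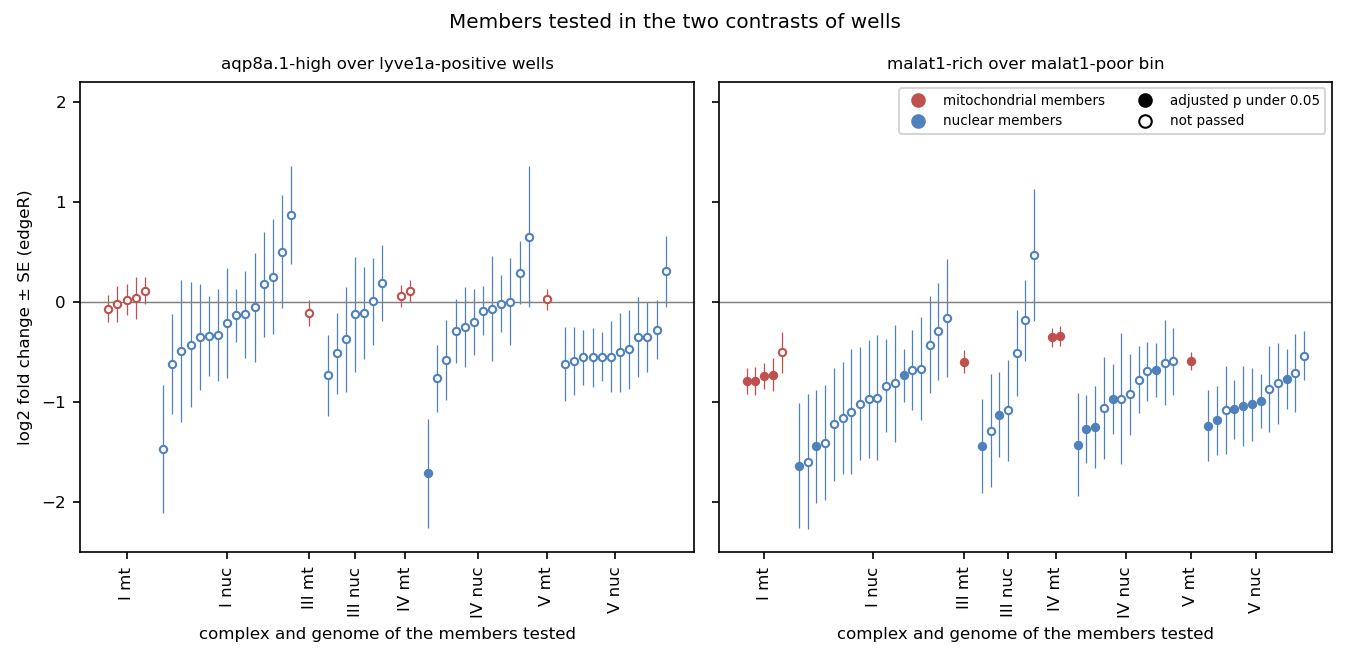
Log2 fold change with its standard error (edgeR) of each member tested, grouped by complex and genome, in aqp8a.1-high over lyve1a-positive wells (left) and in the malat1-rich over the malat1-poor bin (right). Filled points passed an adjusted p of 0.05. Mitochondrial members (red) lie between -0.11 and 0.11 on the left and between -0.79 and -0.34 on the right.

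Over the members tested, 27 of 58 had every malat1-rich sum below every malat1-poor sum, 8 of them mitochondrial, beside 15.6% of all genes tested. In 41 the malat1-rich sum was lower within each plate, beside 24.2%. Other gene groups moved with the bins too. Cytosolic ribosomal protein genes fell in 71 of 73 tested, with a median log2 change of -0.70 (68 by DESeq2). Pan-endothelial markers summed to 4627 to 4738 CPM in the malat1-rich and 2311 to 2637 in the malat1-poor bin. Blood vessel markers, all 8 with a row, summed to 13331, 13733 and 12771 CPM in the malat1-rich bin of plates 1, 2 and 3, against 8154, 10235 and 6063 in the malat1-poor bin. In these sums aqp8a.1 alone had 7155, 7233 and 7069 CPM, against 4060, 4495 and 2092, and kdrl counts in the pan-endothelial list as well. Keratinocyte markers, 5 of 8 with a row, summed to 1019, 1069 and 1172 CPM in the malat1-rich bin, against 652, 753 and 879 in the malat1-poor bin, with krtt1c19e at 0 in both. The pan-endothelial, blood vessel and keratinocyte sums did not overlap between the bins, but without aqp8a.1 the blood vessel sums did. Lymphatic markers, 9 of 10 with a row, had 3200, 2694 and 3945 CPM in the malat1-rich bin. In the malat1-poor bin they had 2408, 3385 and 1425 CPM, so plate 2 ran the other way. The part of these markers in the result was not tested. Neutrophil markers reached 112, 10.5 and 39.1 CPM in the malat1-rich bin of plates 1, 2 and 3, against 83.3, 95.1 and 1819 in the malat1-poor bin, where plate 3 stood apart. Fibroblast markers had 20.4, 21.0 and 312 CPM in the malat1-rich bin, against 13.9, 39.6 and 1182 in the malat1-poor bin. Macrophage markers had 10.2, 0 and 39.1 CPM, against 6.94, 15.9 and 515. Erythrocyte markers had 744, 126 and 39.1 CPM, against 27.8, 214 and 182. Wells that held at least 3 UMIs of markers of other cell types, neutrophils but not keratinocytes among them, were then left out. Of the 25 called members, 11 kept their call there (6 mitochondrial and 5 nuclear). All 23 that were tested there had a negative change, in wells that were also among those by which they were called.

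Genes of the chain that the name rule leaves out, and genes that work beside it, were read from lists. They are set against 15.3% of all genes called lower and 15.3% called higher. The nuclear values of complex III above therefore lack cyc1. Of 13 listed for complex II, cytochrome c and related electron carriers, 3 were tested and all fell in the malat1-rich bin: cyc1, the cytochrome c1 subunit gene of complex III (log2 -1.40, SE 0.52, adjusted p = 0.036, edgeR), cycsb, for cytochrome c (log2 -1.28), and sdhc, for a membrane subunit of complex II (log2 -1.66). DESeq2 called 0 of these 3. Among mitochondrial carriers and porins, 3 of 6 fell and 1 rose, where DESeq2 called 2 lower and 0 higher. The ADP/ATP exchanger gene slc25a5, the most abundant of them with 3214 UMIs, fell (log2 -0.51, SE 0.12, adjusted p = 0.0016, edgeR), as did the phosphate carrier gene slc25a3b (log2 -0.86) and the porin gene vdac1 (log2 -1.26). The uncoupling protein gene ucp3 rose (log2 1.05, adjusted p = 0.049, edgeR).

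Glycolysis genes had a median log2 change of -0.66, and few passed the test. Of 10 tested, 8 had a negative change, beside 1024 of all 1960 genes tested. By edgeR 1 fell, gpia (log2 -1.56, SE 0.61, adjusted p = 0.046, edgeR), and 1 rose, gpib (log2 1.51, SE 0.41, adjusted p = 0.004, edgeR). DESeq2 called 0 lower and 1 higher. Both genes encode glucose-6-phosphate isomerase, and counting could divide reads between such paralogs. The most abundant gene of that list was aldoaa, with 340 UMIs. In the citrate cycle list 1 of 7 fell (0 by DESeq2), mdh1aa (log2 -1.67). Its name is that of the cytosolic malate dehydrogenase, which lies outside the mitochondrial cycle. The most abundant gene of the list was mdh2, with 266 UMIs. No gene of the lists for regulators of mitochondrial genes, for assembly of complexes IV and V, or for mitochondrial ribosomal proteins was abundant enough for the test, with 182, 247 and 1672 UMIs in all. In aqp8a.1-high over lyve1a-positive wells, edgeR called none of the genes tested in these lists: 0 of 3 electron carriers (1 at an unadjusted p under 0.05, sdhc), 0 of 6 carriers and porins (1, vdac2), 0 of 10 glycolysis genes (0), 0 of 7 citrate cycle genes (0) and 0 of 72 cytosolic ribosomal protein genes (2, rpl22l1 and rpl35a). DESeq2 called 0 of each as well. At an unadjusted p under 0.05, edgeR gave 165 of all 1887 genes tested as lower and 178 as higher.

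The balance between the 2 genomes was read as mitochondrial UMIs per nuclear UMI of a complex. In complex IV it was 9.29 ± 0.631 in aqp8a.1-high, 7.58 ± 0.133 in lyve1a-positive wells and 9.80 ± 1.14 in wells of neither kind (SD, n = 3). Complex I had 3.97 ± 1.37 in aqp8a.1-high, 3.19 ± 0.278 in lyve1a-positive and 4.05 ± 0.769 in wells of neither kind. These ratios count the rows present, so a complex with rows missing or merged is not comparable to another. The nuclear side of complex I includes ndufa4l by its name, with 462 of 3133 UMIs.

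Within complex IV the ratio was higher in the first class in each plate, at 9.42, 8.61 and 9.85 in aqp8a.1-high wells, against 7.48, 7.73 and 7.53 in lyve1a-positive wells, and the classes did not overlap. In complex V it was 5.26, 4.33 and 6.81 in aqp8a.1-high wells, against 4.06, 3.09 and 4.92 in lyve1a-positive wells, higher in each plate with overlap across plates. In complex III it was 5.02, 4.87 and 3.67 in aqp8a.1-high wells, against 4.70, 3.98 and 4.83 in lyve1a-positive wells, lower in plate 3, with a mean log2 difference of -0.00309 ± 0.35. In complex I it was 3.45, 2.95 and 5.52 in aqp8a.1-high wells, against 3.23, 2.89 and 3.44 in lyve1a-positive wells, with most of the difference in plate 3. Over all members the log2 of the ratio was higher in aqp8a.1-high wells by 0.31 ± 0.08 (mean ± SD of 3 plates). Its parts were 0.07 ± 0.19 for mitochondrial and -0.25 ± 0.11 for nuclear members, so the mitochondrial part lay within its spread.

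The ratio was also higher where malat1 was high, with both sums lower by unequal amounts. Over all members it was 6.14, 5.99 and 6.64 in the malat1-rich bin, against 4.83, 5.01 and 5.12 in the malat1-poor bin, without overlap. The log2 difference was 0.33 ± 0.06, made of -0.38 ± 0.07 for mitochondrial and -0.71 ± 0.11 for nuclear members. Complex IV had the largest mean difference of the 4 complexes, with a ratio of 9.99, 11.5 and 9.33 in the malat1-rich bin, against 7.14, 7.98 and 6.73 in the malat1-poor bin. In complex I the ratio was 3.56, 3.31 and 4.21 in the malat1-rich bin, against 3.28, 3.36 and 4.26 in the malat1-poor bin, with overlap. Its mitochondrial sum changed by -0.61 ± 0.06 and its nuclear sum by -0.64 ± 0.06 on the log2 scale. In complex IV the mitochondrial sum changed by -0.22 ± 0.08 and the nuclear sum by -0.72 ± 0.07. These differences between complexes are described and were not tested.

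**Figure D4:**
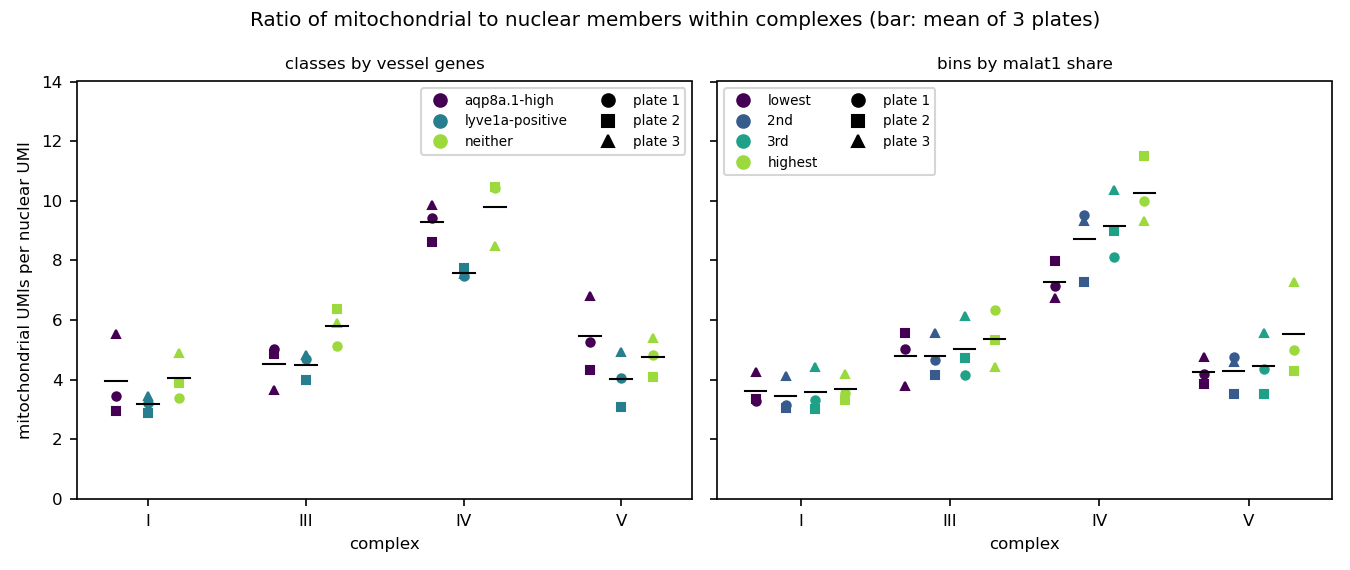
Mitochondrial UMIs per nuclear UMI of the members of each complex, by class of wells (left) and by malat1 bin (right), with one symbol per plate and a bar at the mean of 3 plates. The mean of complex IV was 7.29 in the lowest and 10.3 in the highest malat1 bin. Levels are not comparable between complexes, because rows are missing or may be merged.

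The nuclear decline along malat1 was present inside each class. Wells of at least 300 UMIs were divided at the median malat1 share within class and plate, into a malat1-rich and a malat1-poor side. In aqp8a.1-high wells nuclear members stood at 7011, 6668 and 5618 CPM on the malat1-rich side of plates 1, 2 and 3, against 9452, 9265 and 8800.1 on the malat1-poor side. In lyve1a-positive wells they stood at 8488, 9259.7 and 5989 CPM on the malat1-rich side, against 11776, 10923 and 9769.5 on the malat1-poor side. The sides did not overlap in either class. Mitochondrial members were less even: 43638, 38389 and 53493 CPM on the malat1-rich side of aqp8a.1-high wells, against 53713, 44837 and 52039 on the malat1-poor side, and 45413, 41430.5 and 44748 on the malat1-rich side of lyve1a-positive wells, against 53781, 46076 and 41594 on their malat1-poor side. They were lower on the malat1-rich side of plates 1 and 2 and higher on that of plate 3, in both classes. Plate 3 had only 10 aqp8a.1-high and 16 lyve1a-positive wells on each side.

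Well by well, the 2 sets of members had shares with little relation to each other at this depth. In wells of at least 500 UMIs, Pearson's r between the mitochondrial and the nuclear member share was 0.12, -0.05 and -0.01 in plates 1, 2 and 3 (289, 271 and 112 wells). Between the malat1 share and the nuclear member share it was -0.39, -0.39 and -0.38, and between the malat1 share and the mitochondrial member share -0.26, -0.18 and -0.19. The points of a plate share its library, and both shares of a pair have the same denominator, so these values are given as a description.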

How the data were processed

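For each of 3 plates of sorted fin cells the authors deposited raw UMI counts, with genes down and wells across. The submitters' processing notes name Bowtie2 and, as genome build, GRCz10. How tags were assigned to genes, UMIs collapsed and reads filtered is not given in the sources used here. Wells on the authors' list of analysed cells were kept. Their UMIs were added up by plate and class. These sums entered edgeR 4.0.16, run in R 4.3.3, with filterByExpr, TMM scaling, the quasi-likelihood F-test and Benjamini-Hochberg adjustment over all genes tested, at 0.05. Plate was a block, since the classes of a plate share its sort and library. The class genes aqp8a.1, lyve1a and malat1 are left out of counts of calls. Fits held 9 sums for the vessel classes and 12 for the malat1 bins. Wells that met both class rules were left out and no doublet caller was run. The scripts were tested on simulated sums with the real library sizes and an assumed spread. There the test recovered 34.9% of 2-fold and 77.7% of 3-fold changes between vessel classes, and 29.4% and 78.7% between malat1 bins. Members that did not pass may therefore still differ.

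The members and lists were chosen with earlier results of these data known. Named are members that passed in a comparison, the 20 members with most UMIs, the leading mitochondrial and nuclear member of each complex, mitochondrial rows that overlap another gene, and of the other lists the members that passed and the most abundant one. Paralog pairs, members at 0, members that passed only before adjustment and members that ran against the rest were chosen after their values were seen. Alternatives were DESeq2 1.42.0, its size factors in edgeR, other filters, bins, depths and class rules, and leaving out each plate. Leaving out wells with UMIs of other cell types, reading lower-case names only and dividing the vessel classes by malat1 were added after the data were seen. RefSeq's table for GRCz12tu gave 82 of 100 members a current symbol.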

Additional observations from a re-analysis of the deposited data

Results flagged for a closer look

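Plate 3 held 116 wells that are not on the list of analysed wells, and they carried respiratory chain RNA, which no comparison above uses. They had 76768 UMIs, with a median of 296.5 per well. Mitochondrial members made up 5.75% of these UMIs (exact 95% interval 5.59 to 5.92), against 5.03% in the listed wells of the plate. Nuclear members made up 0.770% (0.709 to 0.834), against 0.832%. The intervals cover counting error only, and a count of 0 would allow 0.00391%. Of these wells 19 had at least 5 aqp8a.1 UMIs and 16 had a lyve1a UMI, and malat1 made up 1.15% of their UMIs, against 1.14% in the listed wells. No group of samples was large enough for a search for outlying plates.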

How the results depend on the processing

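In aqp8a.1-high over lyve1a-positive wells the count of members called lower was 1 and became 0 with DESeq2, without an expression filter, with no replicate block, with wells of both kinds put among the aqp8a.1-high ones, with at least 10 aqp8a.1 UMIs, with wells thinned to 300 UMIs and without wells holding UMIs of other cell types. Leaving out single plates gave 0 to 2. Over all genes, 76 and 86 were called lower and higher. They numbered 29 and 32 with DESeq2, 36 and 35 without the filter, and 39 and 51 with no replicate block. With wells of both kinds put among aqp8a.1-high ones they were 48 and 43, and with them among lyve1a-positive ones 37 and 51. Thinned wells gave 16 and 18, and leaving out wells holding UMIs of other cell types gave 26 and 23. Without single plates they were 21 to 87 and 16 to 99. In the malat1 comparison members called lower numbered 25, and 10 with DESeq2, 14 without the filter and 15 with no replicate block. They were 15 with wells in 3 bins, 12 in wells of at least 500 UMIs and 12 without wells holding UMIs of other cell types. Thinned wells gave 0 of 14 tested, and leaving out single plates gave 4 to 22. All genes, 300 and 299 lower and higher, became 162 lower with DESeq2 and 165 lower without wells holding UMIs of other cell types. They were 22 and 40 in thinned wells, and 64 to 319 and 124 to 362 without single plates. Fewer UMIs and fewer members tested accompany thinning and the fits without plate 1 or plate 2. Without plate 3 more members were tested, 60 against 55 between vessel classes and 63 against 58 between malat1 bins. No cause of the changes in these counts was tested. No called member changed direction under any alternative that tested it. The alternatives reuse the data by which the members were called, so this is no separate evidence. The log2 difference of the genome ratio along malat1, 0.33, was 0.41 in wells of at least 500 UMIs and 0.40 in all wells. Depth limits most nuclear members, whose median is 85.5 UMIs over all analysed wells.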
